A study of Mus musculus with 56 samples.

Results

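The bulk RNA-seq libraries of wild-type mouse cortex and wild-type mouse cerebellum were compared gene by gene. The members were all samples that the labels call cortex or cerebellum with genotype WT, which gave 3 cortex and 3 cerebellum libraries, 6 of the 56 samples of the series. The series was designed to compare wild-type with Fmr1 knockout mice (Fmr1 encodes FMRP, an RNA-binding protein of neurons) in brain regions and peripheral tissues, together with N2a cells, a mouse neuroblastoma line. No knockout sample and no treated sample entered the comparison, and no agent is named for these animals. RNA was extracted from tissue powder with TRIzol and treated with DNase, and polyadenylated RNA was made into libraries with a directional kit. Strain, age and sex are not given in the labels, nor how each region was dissected. The Y-linked gene Ddx3y was at 89.6, 94.1 and 96.2 counts-per-million (CPM) in the cortex libraries and 106, 107 and 124 in the cerebellum libraries, so reads of a Y-linked gene were counted in all 6. The labels do not say that the 3 libraries of a region came from separate mice, and the p-values below measure only the spread between these libraries.

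The cortex is built by the forebrain and works through glutamatergic projection neurons arranged in layers, with locally projecting GABAergic interneurons that migrate in from the ventral forebrain. The cerebellum arises at the border of midbrain and hindbrain; its principal neurons are the very numerous small granule cells, which are glutamatergic, and the large GABAergic Purkinje cells, whose axons are the only output of its cortex, with Bergmann glia around their dendrites. Region identity is set up by transcription factors of the embryo, many of which stay expressed in the adult neurons, and the neurons of each region then use different members of the same receptor, channel and calcium-signalling families.

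Counts summed to between 26264368 and 27786362 per cortex library and between 27452002 and 40722762 per cerebellum library over 15777 genes. Log-scaled CPM correlated at 0.988 to 0.992 (Pearson's r across genes) between cortex libraries, 0.994 to 0.995 between cerebellum libraries and 0.862 to 0.869 between regions. Of 14913 genes that passed the filter on low counts, 10019 (67.2%) differed between the regions in edgeR's quasi-likelihood test at a Benjamini-Hochberg adjusted p below 0.05. Of these, 4969 (33.3%) were higher in cortex and 5050 (33.9%) in cerebellum. The 2 groups of libraries did not overlap in CPM for 10649 genes (71.4%). Because so many genes differed, members of gene groups are counted below at an adjusted p below 0.05 together with a difference of at least 2-fold. That rule called 3687 genes (24.7%), 2088 (14.0%) higher in cortex and 1599 (10.7%) higher in cerebellum, and every "2-fold higher" count below is to be read against those 2 shares, and every count at an adjusted p below 0.05 alone against 33.3% and 33.9%. At 16-fold or more there were 351 genes higher in cortex and 172 higher in cerebellum, and at 256-fold or more 44 and 30. The median log2 fold change of all tested genes, cortex over cerebellum, was -0.01, so negative values below mean higher in cerebellum. Where values of 3 libraries are given below, they stand in the order of the replicate numbers, and the libraries of the 2 regions did not overlap unless an overlap is stated. In whole tissue, fewer cells of a type and less RNA per cell cannot be told apart.

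**Figure D1:**
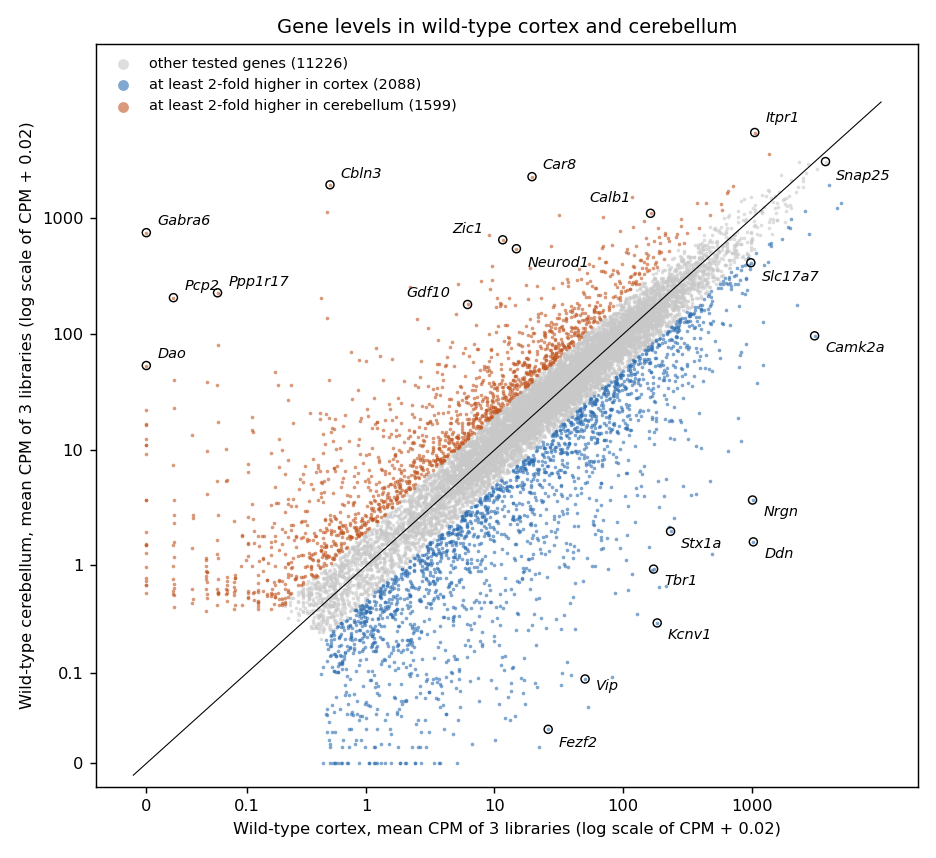
Mean CPM of each tested gene in the 3 cortex libraries (horizontal, log scale) against the 3 cerebellum libraries (vertical, log scale), with the line of equal level. Blue points were at least 2-fold higher in cortex (2088 genes) and orange points at least 2-fold higher in cerebellum (1599 genes); Gabra6 and Dao lie at 0 CPM in cortex, and Fezf2 near 0 in cerebellum.

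Transcription factors that pattern the forebrain were among the genes with the largest differences toward cortex. Fezf2, which specifies subcerebral projection neurons of the deep layers, was at 29.8, 29.5 and 19.2 CPM in cortex, with 2048 counts in all, against 2 counts in the 3 cerebellum libraries together, a ratio of 1370.2 (95% counting interval 379 to 11321). The homeobox factors Emx1 and Emx2 mark the dorsal telencephalon. Emx1 was at 17.1, 13.9 and 10.4 CPM in cortex and 0.142, 0.0290 and 0.167 in cerebellum. Its log2 fold change was 6.86 ± 0.33 (SE; adjusted p = 1.2e-08, edgeR). Emx2 was at 6.81, 11.1 and 12.3 CPM in cortex with a single count in the cerebellum libraries. All 3 genes were at or near no counts in cerebellum. Of 15 tested forebrain patterning factors, 11 were 2-fold higher in cortex and 2 in cerebellum, with a median log2 fold change of 5.54. The 2 at 2-fold in cerebellum were Pax6 and Otx2, both active in the embryonic forebrain. Pax6, which granule cells keep expressing, was at 5.96, 7.32 and 8.48 CPM in cortex and 128, 114 and 119.5 in cerebellum. Otx2 was at 0.0779, 0.112 and 1.09 CPM in cortex and 17.2, 17.6 and 20.8 in cerebellum, and it is also a choroid plexus gene, whose tissue markers were higher in the cerebellum libraries (below). Six3, a factor of the ventral forebrain and striatum, varied between the cortex libraries, at 0.506, 3.85 and 9.37 CPM in cortex against 0, 0.0581 and 0.191 in cerebellum. Without the third cortex library its log2 fold change went from 5.54 to 4.48.

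Factors of the cortical projection neurons followed the same direction with few exceptions. Of 24 such genes, 18 were 2-fold higher in cortex and 1 in cerebellum, with a median log2 fold change of 3.15. Tbr1, a T-box factor of deep-layer corticothalamic neurons, was at 189, 185 and 142 CPM in cortex and 0.920, 0.900 and 0.955 in cerebellum, a 185-fold difference (adjusted p = 2.5e-11, edgeR). Neurod6, a basic helix-loop-helix factor of pyramidal neurons, was at 83.4, 103 and 85.2 CPM in cortex against 7.93, 7.87 and 7.40 in cerebellum, so it was still measured at several CPM in cerebellum. Mef2c, an activity-regulated factor of upper and deep layers, was at 1332, 1281 and 1059 CPM in cortex against 53.6, 52.0 and 56.8 in cerebellum. Smaller differences that passed the test were those of Cux2 (log2 fold change 1.04 ± 0.12), Tle4 (1.10 ± 0.07) and Sox5 (0.80 ± 0.06), factors of upper layer neurons, layer 6 and deep layer identity. Zbtb18, a repressor needed for both projection neurons and granule cells, was the 1 member 2-fold higher in cerebellum, at 491, 504 and 408 CPM in cortex and 1109.6, 1111 and 963 in cerebellum. Neurod2, often used as a marker of cortical pyramidal neurons, was also higher in cerebellum, at 63.2, 61.0 and 46.4 CPM in cortex against 112, 110.1 and 97.8 in cerebellum (log2 fold change -0.91 ± 0.11, adjusted p = 2.2e-05, edgeR), just short of 2-fold.

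Among 20 cortical layer markers, 17 were 2-fold higher in cortex and 2 in cerebellum (median log2 fold change 2.38). Crym, a thyroid hormone binding protein of deep layers, was 405-fold higher in cortex, with 31.0, 28.9 and 38.1 CPM there and 8 counts in all in cerebellum. Lamp5, found in upper layers and in neurogliaform interneurons, was at 239.8, 245 and 198 CPM in cortex and 4.0, 0.465 and 1.96 in cerebellum, where the 3 libraries ranged more widely in proportion than in cortex. The layer 5 marker Etv1 and the layer 6b marker Nxph4 were the 2 members higher in cerebellum. Etv1, an ETS factor that granule cells also express, was at 114, 118 and 90.2 CPM in cortex and 531, 529 and 571 in cerebellum. Nxph4, a neurexophilin, was at 2.10, 1.79 and 2.49 CPM in cortex and 11.0, 10.1 and 8.28 in cerebellum.

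Genes of the forebrain excitatory synapse were mostly higher in cortex. Of 20 listed genes, 15 were 2-fold higher in cortex and 1 in cerebellum, with a median log2 fold change of 2.41, and their summed level was 9441 to 10794 CPM in cortex libraries and 2261 to 2567 in cerebellum libraries. Camk2a, the alpha subunit of the calcium and calmodulin dependent kinase of the postsynaptic density, was at 3081, 3264 and 2811 CPM in cortex and 98.9, 100.2 and 91.0 in cerebellum. Nrgn (neurogranin), which holds calmodulin at the postsynapse, was at 1128, 1117 and 777 CPM in cortex against 2.44, 2.27 and 6.40 in cerebellum. Ddn (dendrin), a dendritic protein, was at 996, 1019 and 1051 CPM in cortex against 1.45, 2.09 and 1.27 in cerebellum (log2 fold change 9.32 ± 0.13, adjusted p = 3.3e-12, edgeR). All 3 were in cerebellum at a few percent or less of their level in cortex. Icam5, an adhesion molecule of telencephalic dendrites, was 346-fold higher in cortex. Slc17a7, the vesicular glutamate transporter VGLUT1 that cortical neurons and granule cells share, differed far less, at 1098, 1025 and 807 CPM in cortex and 452, 441 and 344 in cerebellum, 2.37-fold. Nptx1, a pentraxin that gathers AMPA receptors, was the member higher in cerebellum, at 413, 406 and 341 CPM in cortex against 862, 852 and 756 in cerebellum.

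The forebrain interneuron list had 25 members, and 17 were 2-fold higher in cortex and 5 in cerebellum. The median log2 fold change was 6.24, or 6.15 with the genes at 0 in cerebellum set to their lower bound. The Dlx homeobox genes specify ventral forebrain GABAergic neurons. Dlx6 was at 2.22, 3.18 and 5.64 CPM in the cortex libraries and had no count in any cerebellum library, which makes it at least 128-fold higher in cortex against a floor of 3 counts over the 3 libraries. Dlx6os1, an RNA from the strand opposite Dlx6, had 1740 counts in cortex and 1 in cerebellum, a ratio of 2328 (95% counting interval 417 to 92011), and Dlx1as, opposite Dlx1, had 1134 and 3, a ratio of 506 (95% counting interval 173 to 2456). Dlx6os1 (16.6, 21.9 and 28.3 CPM in cortex) was highest in the third cortex library, as Dlx6 was and as striatal markers were (below). Dlx1as (14.8, 16.2 and 12.5 CPM) was not. The part of striatal tissue in these levels was not tested. Whether the counting used the strand of the reads is not given in the sources used here, and 20.6% of the exon bases of Dlx1as overlap Dlx1, while the exons of Dlx6os1 and Dlx6 share 0 bases in the annotation. Vip, the vasoactive intestinal peptide of a class of interneurons that inhibit other interneurons, was at 52.6, 53.7 and 45.5 CPM in cortex and 0.0354, 0.0581 and 0.167 in cerebellum. Sst (somatostatin), the peptide of dendrite-targeting interneurons, was at 116, 110.4 and 89.1 CPM in cortex against 0.743, 1.02 and 1.55 in cerebellum. Cort (cortistatin) had no count in cerebellum and was at least 71.1-fold higher in cortex. The 5 members 2-fold higher in cerebellum were Calb2, Nos1, Reln, Prox1 and Cnr1, of which Prox1 and Cnr1 are named because the count is small and after their values were seen. Calb2 (calretinin, a calcium buffer that granule and unipolar brush cells also hold) was at 8.37, 8.67 and 11.9 CPM in cortex and 403, 385 and 367 in cerebellum. Reln (reelin, an extracellular guidance protein that granule cells secrete) was at 119, 107 and 103 CPM in cortex and 502, 495 and 493 in cerebellum. Nos1 (neuronal nitric oxide synthase) was at 18.1, 17.8 and 21.8 CPM in cortex and 102, 96.4 and 89.1 in cerebellum.

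**Figure D2:**
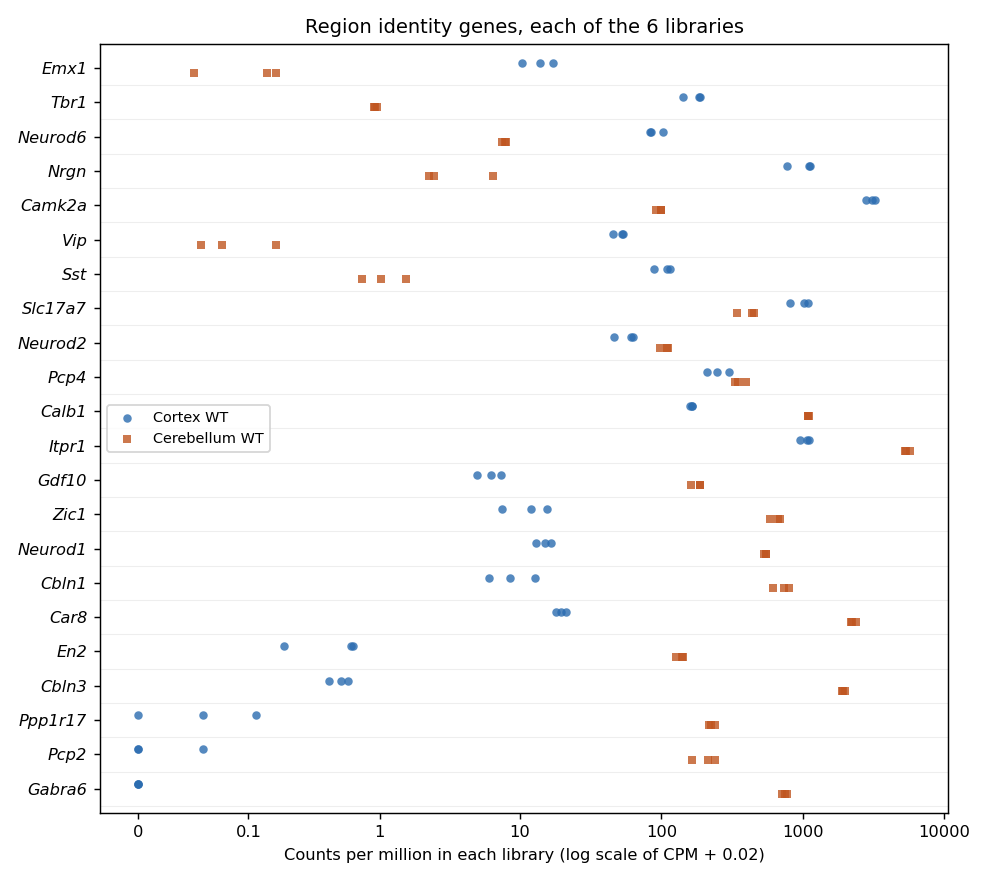
CPM of 22 identity genes in each of the 6 libraries on a log scale (blue circles cortex, orange squares cerebellum; 1 point per library). The genes from Emx1 to Slc17a7 were higher in every cortex library and those from Neurod2 down to Gabra6 in every cerebellum library. Except for Pcp4, the replicates of a region lie close together beside the gap between regions. The cortex replicates of Pcp4 range more widely than the gap between its regions.

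Granule cell genes were higher in cerebellum almost throughout. Gabra6, the alpha 6 subunit of the GABA-A receptor, which is typical of granule cells, was at 754, 719 and 773 CPM in the cerebellum libraries and had no count in any cortex library. Against a floor of 3 counts over the 3 cortex libraries it was at least 19502-fold higher in cerebellum. Cbln3, a secreted cerebellin of granule cells, was at 0.584, 0.523 and 0.428 CPM in cortex and 1981, 1925 and 1899 in cerebellum (log2 fold change -11.87 ± 0.10, adjusted p = 1.2e-13, edgeR). The homeobox factor Uncx was without counts in cortex and at least 430.4-fold higher in cerebellum, and Barhl1, a homeobox factor of the rhombic lip lineage, likewise at least 289-fold, at 11.0, 11.2 and 11.1 CPM. These 4 genes had few or no counts in cortex. Neurod1, a basic helix-loop-helix factor that drives granule cell differentiation, was at 16.5, 14.9 and 13.0 CPM in cortex and 552, 531 and 549 in cerebellum. Grm4, a presynaptic glutamate receptor of parallel fibres, was at 27.9, 28.1 and 26.4 CPM in cortex against 640.2, 630.2 and 466 in cerebellum. Gabrd, the GABA-A delta subunit that pairs with alpha 6 outside the synapse, was at 61.4, 58.8 and 57.6 CPM in cortex against 144, 153 and 121 in cerebellum. Of 28 listed granule cell genes, 24 were 2-fold higher in cerebellum and 1, Slc17a7, in cortex, with Vsnl1, a calcium sensor, higher in cortex by less than 2-fold; the median log2 fold change was -3.99. Rims3, an active zone protein, had the smallest difference of the list (-0.43 ± 0.16, adjusted p = 0.029, edgeR), and its libraries overlapped (37.1, 31.2 and 21.9 CPM in cortex, 41.3, 44.2 and 36.6 in cerebellum). It was no longer called without the second cortex, first cerebellum or second cerebellum library (adjusted p = 0.055, 0.069 and 0.095, edgeR). The list summed to 2295 to 2758 CPM per cortex library and 10979 to 11858 per cerebellum library.

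Purkinje cell genes were likewise higher in cerebellum, for 29 of 33 listed genes at 2-fold, with 2 in cortex and a median log2 fold change of -3.69. Pcp2, a G-protein modulator regarded as specific to Purkinje and retinal bipolar cells, had 21036 counts in the cerebellum libraries and 1 in the cortex libraries, a ratio of 15721 (95% counting interval 2821 to 620995). Of its annotated exon bases, 51.5% overlap Pet100 on the opposite strand. Ppp1r17, a phosphatase inhibitor phosphorylated by cGMP-dependent kinase, was at 219, 224 and 238 CPM in cerebellum with 4 counts in all in cortex. Car8, a carbonic anhydrase homologue that binds the IP3 receptor, was at 18.1, 21.1 and 19.6 CPM in cortex and 2196, 2240.2 and 2385 in cerebellum. Itpr1, the type 1 IP3 receptor itself, was at 962, 1104 and 1076 CPM in cortex and 5347, 5735 and 5302 in cerebellum, so it was abundant in both regions and 5.21-fold higher in the second. The calcium buffer Calb1 (calbindin) was at 164, 159 and 166 CPM in cortex against 1089, 1099 and 1109.8 in cerebellum and Pvalb (parvalbumin) at 36.8, 41.2 and 31.9 CPM in cortex against 304, 305 and 286 in cerebellum. Both buffers also mark cortical interneurons. Lhx1, a LIM homeobox factor of Purkinje cells, had 1 count in cortex and 4119 in cerebellum, and Lhx1os, transcribed from the opposite strand beside it, had none and was at least 439.9-fold higher in cerebellum. Pcp4, a calmodulin regulator named after Purkinje cells, differed by a log2 fold change of only -0.50 ± 0.12 (adjusted p = 0.0027, edgeR), at 211, 249.5 and 302 CPM in cortex and 399.9, 351 and 332 in cerebellum. The 2 listed genes higher in cortex were Itpka, a kinase of dendritic spines (131, 110.1 and 101 CPM in cortex against 46.4, 51.9 and 40.2 in cerebellum), and Foxp2, a forkhead factor that deep cortical layers and striatum also express (31.8, 33.6 and 52.8 CPM in cortex against 15.5, 15.9 and 17.8 in cerebellum). Without the third cortex library, whose striatal markers stood above those of the others (below), the log2 fold change of Foxp2 was 0.99, under 2-fold.

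The remaining cerebellar cell types were represented by shorter lists. Of 17 tested genes of cerebellar inhibitory interneurons and unipolar brush cells, 8 were 2-fold higher in cerebellum and 4 in cortex (median log2 fold change -0.75). Slc6a5, the glycine transporter of Golgi cells, was at 16.3, 14.9 and 13.7 CPM in cerebellum and 0, 0.299 and 0.0389 in cortex. Eomes, a T-box factor that unipolar brush cells retain, was at 18.8, 20.4 and 20.8 CPM in cerebellum and 0.584, 0.299 and 1.13 in cortex, and Tfap2b, an AP-2 factor of GABAergic precursors, at 60.3, 58.9 and 57.7 and 1.17, 1.01 and 0.817. The general GABA genes Gad1 and Gad2 differed less. Gad1, a GABA-synthesizing enzyme, was higher in cerebellum without overlap but by less than 2-fold (448, 443 and 495 CPM in cortex, 615, 639 and 628 in cerebellum). The libraries of Gad2 overlapped (221, 267 and 408 CPM in cortex and 236, 237 and 251 in cerebellum, adjusted p = 0.14, edgeR). Of 18 genes of GABA and glycine synthesis, transport and further receptors, 4 were 2-fold higher in cortex and 3 in cerebellum. The glycine receptor subunits went both ways: Glra1, the adult synaptic form, was at 0.506, 0.486 and 0.661 CPM in cortex and 3.82, 1.07 and 3.25 in cerebellum. Glra3 was at 3.62, 3.14 and 3.34 CPM in cortex and 0.0354, 0.203 and 0.191 in cerebellum. Of 12 Bergmann glia genes, 11 were 2-fold higher in cerebellum (median log2 fold change -2.61). Gdf10, a BMP-family ligand, was at 6.23, 4.97 and 7.35 CPM in cortex and 189, 189 and 162 in cerebellum. A2m (alpha-2-macroglobulin) was at 1.56, 2.24 and 3.66 CPM in cortex and 133, 138 and 137 in cerebellum. Hopx, a homeodomain-only protein, was at 19.8, 16.5 and 12.8 CPM in cortex and 80.3, 82.5 and 74.4 in cerebellum. The exception was Npy1r, a neuropeptide Y receptor that cortical neurons also carry, at 36.4, 34.4 and 32.1 CPM in cortex and 1.35, 1.07 and 1.10 in cerebellum.

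Of the patterning factors of the midbrain-hindbrain border and hindbrain, 12 of 12 tested were 2-fold higher in cerebellum, with a median log2 fold change of -6.24. Members near 0 in cortex, such as Pax3, passed the filter on low counts only through the cerebellum libraries. Their direction was therefore fixed once they were tested. Another 17 listed genes, among them the Hox genes and Fgf8, were not analysed here, and Fgf17 was too low to test. En2 (engrailed 2), which defines the border region, was at 0.195, 0.635 and 0.622 CPM in cortex and 143, 141 and 126 in cerebellum. Pax3 was at 6.51, 7.58 and 8.0 CPM in cerebellum with 1 count in cortex. Mab21l1, a nucleotidyltransferase-like protein of eye and cerebellum development, was at 0.662, 0.635 and 0.972 CPM in cortex against 72.0, 72.6 and 64.7 in cerebellum (39.4% of its exon bases overlap Nbea on the opposite strand). The zinc-finger genes of the Zic family were also counted as a list of their own, and 5 of 5 were 2-fold higher in cerebellum (median log2 fold change -4.37). Zic1, which granule cell precursors and their mature progeny express, was at 7.48, 12 and 15.4 CPM in cortex and 696, 666 and 588 in cerebellum. Zic2 was at 8.14, 8.52 and 10.9 CPM in cortex and 261, 259 and 212 in cerebellum. Zic1 (9:91358058-91365810, minus strand) and Zic4 (9:91362413-91389348, plus strand) lie head to head and share 60 exon bases in the GRCm38 annotation. Zic4 was at 1.52, 2.17 and 3.50 CPM in cortex and 37.7, 36.4 and 34.6 in cerebellum.

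**Figure D3:**
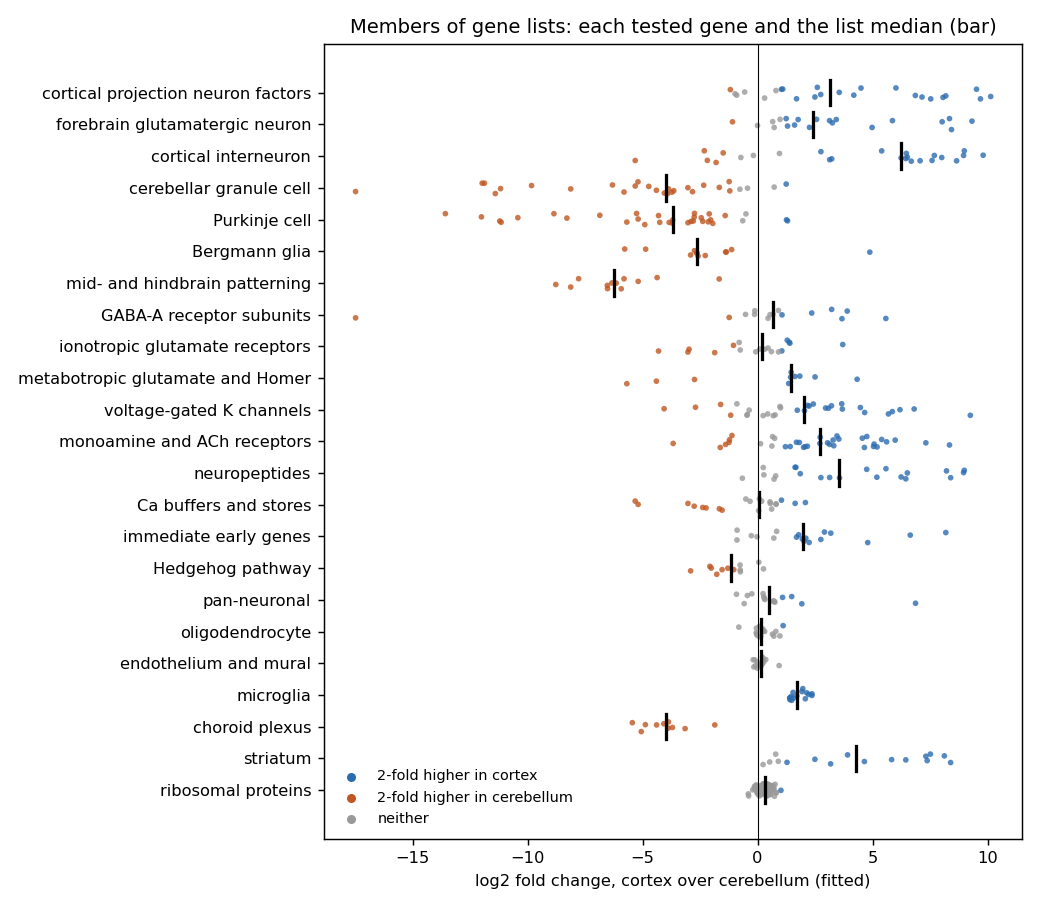
Fitted log2 fold change, cortex over cerebellum, of each tested member of 23 gene lists (1 point per gene, scattered vertically only for visibility; black bar, list median). Neuronal identity lists lie to the right for cortex and to the left for cerebellum, whereas the oligodendrocyte, endothelial, pan-neuronal and ribosomal protein lists have medians between 0.14 and 0.50.

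The upstream sequence is shown for 6 genes that differed between the regions, 3 higher in cerebellum (Gabra6, Barhl1, Krt25) and 3 higher in cortex (Neurod6, Mef2c, Vip). This sets the DNA just before the start of genes higher in either region side by side. Krt25, a keratin known from hair roots, was among the 10 largest differences toward cerebellum, at 11.6, 11.6 and 10.2 CPM with no count in cortex (at least 290.0-fold). Each line gives the 250 bases before the annotated start, 5′ to 3′ on the gene's strand, from RefSeq (GRCm38.p6). Capitals mark the E-boxes CAGATG (reverse CATCTG) and CAGCTG (its own reverse complement), which basic helix-loop-helix factors such as NEUROD1 can bind, and the TATA box TATAAA (reverse TTTATA), searched on both strands.
Gabra6: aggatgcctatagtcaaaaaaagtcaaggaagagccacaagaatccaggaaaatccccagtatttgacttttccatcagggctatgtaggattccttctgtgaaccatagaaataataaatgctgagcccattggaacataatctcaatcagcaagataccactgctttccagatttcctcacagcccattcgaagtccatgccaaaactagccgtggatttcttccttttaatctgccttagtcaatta
Barhl1: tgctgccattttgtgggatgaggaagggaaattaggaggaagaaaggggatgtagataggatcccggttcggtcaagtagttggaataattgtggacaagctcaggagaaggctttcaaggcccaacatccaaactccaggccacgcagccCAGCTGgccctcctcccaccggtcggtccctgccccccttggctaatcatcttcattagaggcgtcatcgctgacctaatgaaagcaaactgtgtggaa
Krt25: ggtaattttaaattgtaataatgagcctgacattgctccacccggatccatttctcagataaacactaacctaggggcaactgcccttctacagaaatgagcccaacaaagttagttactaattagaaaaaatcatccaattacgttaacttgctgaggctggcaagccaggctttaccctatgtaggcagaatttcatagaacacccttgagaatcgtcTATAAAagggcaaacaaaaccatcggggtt
Neurod6: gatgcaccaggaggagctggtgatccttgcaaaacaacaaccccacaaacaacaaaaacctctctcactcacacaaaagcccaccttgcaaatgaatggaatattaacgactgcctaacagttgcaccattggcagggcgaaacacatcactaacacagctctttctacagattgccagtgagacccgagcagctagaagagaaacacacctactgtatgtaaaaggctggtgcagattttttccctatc
Mef2c: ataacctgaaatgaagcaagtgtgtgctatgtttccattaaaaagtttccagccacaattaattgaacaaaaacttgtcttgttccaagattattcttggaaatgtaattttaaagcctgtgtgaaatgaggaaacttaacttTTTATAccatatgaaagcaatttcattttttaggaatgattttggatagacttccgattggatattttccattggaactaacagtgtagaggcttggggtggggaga
Vip: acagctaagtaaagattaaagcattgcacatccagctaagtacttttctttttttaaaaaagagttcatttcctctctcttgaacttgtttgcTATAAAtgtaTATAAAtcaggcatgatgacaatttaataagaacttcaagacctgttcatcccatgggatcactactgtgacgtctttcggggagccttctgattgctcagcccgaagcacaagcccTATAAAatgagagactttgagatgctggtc
The Gabra6 window lies at chr11:42321073-42321322 (minus strand), Barhl1 at chr2:28916669-28916918 (minus), Krt25 at chr11:99322952-99323201 (minus), Neurod6 at chr6:55681264-55681513 (minus), Mef2c at chr13:83503784-83504033 (plus) and Vip at chr10:5638968-5639217 (plus). None of the 6 windows covers an annotated exon. Barhl1 holds CAGCTG at position -99 from the start, Krt25 holds TATAAA at -30, Mef2c holds the reverse form at -107, and Vip holds TATAAA at -157, -147 and -30. No match in the Gabra6 and Neurod6 windows says only that these letters are not in them.

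Over many promoters the same letters were a little more frequent upstream of genes with large differences. A window of 250 bases was found for 11201 of the 14913 tested genes (75.1%), and for 1490 and 1166 of the genes 2-fold higher in cortex and cerebellum. CAGATG was in 10.2% of the windows of all tested genes, 12.5% for genes 2-fold higher in cortex and 12.9% for those 2-fold higher in cerebellum. For genes at least 16-fold higher it was in 15.4% (37 of 240) and 18.2% (22 of 121). CAGCTG was in 12% of all windows and in 18.3% and 14.0% at 16-fold or more in cortex and cerebellum. TATAAA was in 6.5% of all windows and in 13.3% and 12.4%. The CCAAT box (CCAAT, reverse ATTGG) was in 36.3% of all windows and in 30.4% and 36.4%. Windows with a ratio of observed to expected CpG above 0.6 made up 64.7% of all tested genes, 46.2% and 49.5% of the genes 2-fold higher in cortex and cerebellum, and 33.8% and 30.6% at 16-fold or more. In the whole promoter table of 27025 genes, which includes those without reads here, the shares were 14.5% for CAGATG, 12.7% for CAGCTG, 13.0% for TATAAA and 34.5% for windows with such a CpG ratio. These are descriptions of letters in a window, in sets whose base composition differed (median GC content 60.0% over all tested genes, 55.4% and 56.8% in the 16-fold sets), and no test was made.

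Receptor families differed mainly in which subunits each region used. Of 15 tested GABA-A receptor subunits, 6 were 2-fold higher in cortex and 2, Gabra6 and Gabrd, in cerebellum. As a share of the summed transcripts-per-million (TPM, the authors' length-scaled level) of the alpha subunits, Gabra6 made up 0 in every cortex library and 57.7% ± 0.798 (SD, n = 3) in cerebellum. Gabra3 made up 17.8% ± 0.776 in cortex and 0.878% ± 0.0548 in cerebellum. Gabra5, an extrasynaptic subunit of forebrain pyramidal cells, was at 69.6, 66.6 and 64.6 CPM in cortex and 1.66, 0.987 and 1.55 in cerebellum. Gabrd made up 25.4% ± 0.400 of the TPM of the gamma and delta subunits in cortex and 53.7% ± 4.92 in cerebellum. Gabra6 sits on chromosome 11 (42306437-42321072, minus strand) in a cluster of receptor subunit genes, with Gabrb2 (42419757-42629028, plus) on one side. Gabrb2 did not pass the test (adjusted p = 0.087, edgeR) and was at 601, 659.5 and 614 CPM in cortex and 653, 681 and 712 in cerebellum, with overlap.

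For ionotropic glutamate receptors, 5 of 18 subunits were 2-fold higher in each region. Grin2b, the NMDA receptor subunit with slow kinetics, was at 113, 116 and 95.4 CPM in cortex and 7.65, 8.63 and 8.50 in cerebellum. Grin2c, the subunit of mature granule cells, was at 29.9, 36.4 and 34.4 CPM in cortex and 294, 284 and 244 in cerebellum. Per length, Grin2a and Grin2b together led the GluN2 subunits of cortex (48.1% ± 0.644 and 32.6% ± 1.42 of summed TPM), whereas Grin2c made up 80.4% ± 2.18 in cerebellum. The obligatory subunit Grin1 was 1.38-fold higher in cortex, at 537, 504 and 439 CPM in cortex and 384, 373 and 319.9 in cerebellum. Among AMPA subunits, Gria2, whose edited form makes the channel impermeable to calcium, made up 42.6% ± 0.716 of TPM in cortex and 21.0% ± 2.15 in cerebellum, and Gria4 13.3% ± 0.976 and 37.5% ± 0.174. In the metabotropic group, Grm5, which signals through Gq and IP3, was at 275, 281 and 346 CPM in cortex and 13.1, 12 and 19.4 in cerebellum. The Homer scaffolds, which tie metabotropic receptors to IP3 receptors, were used in opposite proportion: Homer1 made up 87.1% ± 1.37 of Homer TPM in cortex and 9.38% ± 1.60 in cerebellum, and Homer3 2.62% ± 0.282 and 88.0% ± 2.12. Of the exon bases of Homer3, 25.4% overlap Ddx49 on the opposite strand. All 10 tested members of that list passed the 2-fold rule, 7 in cortex and 3, among them Grm4 and Homer3, in cerebellum.

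**Figure D4:**
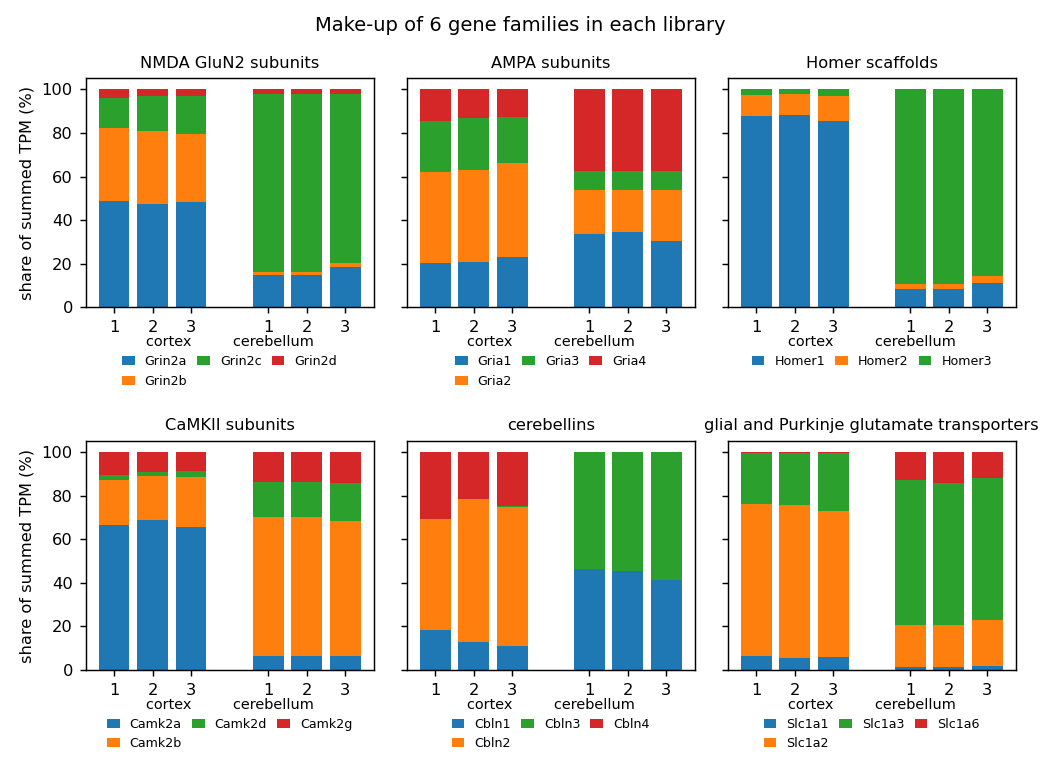
Share of summed TPM (vertical, percent) taken by each member of 6 gene families in each of the 6 libraries (3 cortex bars, then 3 cerebellum bars). The 3 bars of a region resemble each other, and the leading member differs between regions in all 6.

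Plasma membrane glutamate transporters and cerebellins also differed between regions in the leading member, and the vesicular glutamate transporters did not. Slc1a2 (GLT-1), the astrocytic glutamate transporter of forebrain, made up 69.0% ± 1.71 of the TPM of the 4 plasma membrane transporters in cortex and 19.7% ± 1.26 in cerebellum. Slc1a3 (GLAST), the main transporter of Bergmann glia, made up 24.6% ± 1.68 and 65.7% ± 0.818. Slc1a6 (EAAT4), which Purkinje cells hold, was at 4.91, 5.08 and 5.06 CPM in cortex and 151, 162 and 137 in cerebellum. Of the vesicular transporters, Slc17a7 made up 96.2% ± 0.654 of TPM in cortex and 95.5% ± 2.01 in cerebellum, and the libraries of the regions overlapped in this share and in that of Slc17a6 (VGLUT2). By level Slc17a6 was at 54.1, 48.6 and 49.0 CPM in cortex and 27.4, 20.4 and 38.0 in cerebellum. Cerebellins are C1q-related ligands that bridge presynaptic neurexins and postsynaptic delta receptors. Cbln1, the ligand of parallel fibres, was at 12.7, 8.52 and 6.03 CPM in cortex and 796, 742 and 618 in cerebellum. Cbln2 was at 37.4, 46.8 and 37.7 CPM in cortex and 0.283, 0.0581 and 1.22 in cerebellum. Per length, Cbln1 and Cbln3 made up 44.3% ± 2.76 and 55.6% ± 2.72 of cerebellin TPM in cerebellum, and Cbln2 and Cbln4 60.1% ± 8.14 and 25.5% ± 4.62 in cortex. Grid1, a receptor of these ligands, was higher in cortex (log2 fold change 1.41 ± 0.08). The neurexins Nrxn2 and Nrxn3 had log2 fold changes of -0.54 ± 0.11 and -0.18 ± 0.07, and Nrxn3 lost its call without any 1 of 4 libraries (adjusted p = 0.057 to 0.12, edgeR). In the synaptic adhesion list 10 of 24 genes were 2-fold higher in cortex and none in cerebellum, led by Lrrtm4 (54.3, 47.5 and 56.5 CPM in cortex against 4.92, 4.97 and 5.87 in cerebellum) and Lrrtm1, leucine-rich repeat partners of neurexins.

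Calcium buffers and stores included members higher in either region. Of 21 tested buffers, store channels and pumps, 8 were 2-fold higher in cerebellum and 3 in cortex. At an adjusted p below 0.05 alone 10 were higher in cerebellum and 8 in cortex, and the median log2 fold change was 0.05. Besides Itpr1, Calb1, Pvalb and Calb2 (above), Atp2a3, a SERCA pump that refills the store, was at 8.57, 8.37 and 6.77 CPM in cortex and 301, 307 and 259.6 in cerebellum. Itpr1 accounted for 96.6% ± 0.0713 of IP3 receptor TPM in cortex and 99.0% ± 0.0449 in cerebellum, so the receptor type was the same in both and the amount differed. Ryr2, a ryanodine receptor, did not pass the test and its libraries overlapped: it was at 344, 364 and 301 CPM in cortex and 306, 313 and 334 in cerebellum (adjusted p = 0.36, edgeR). Among the 3 higher in cortex, Atp2b4, a plasma membrane calcium pump, was at 435, 368 and 372 CPM in cortex against 95.2, 89.5 and 93.3 in cerebellum. In the calmodulin pathway 10 of 19 genes were 2-fold higher in cortex and 2, Camk4 and Camk2d, in cerebellum, with a median log2 fold change of 1.03. Camk4, a nuclear kinase of granule cells, was at 656, 714 and 743 CPM in cortex and 1838, 1811 and 2045 in cerebellum. Camkv, a kinase-like protein of spines without kinase activity, was 87.5-fold higher in cortex. Camk2a made up 67.0% ± 1.62 of CaMKII TPM in cortex and 6.42% ± 0.169 in cerebellum, where Camk2b made up 63.3% ± 0.978, although the libraries overlapped in the level of Camk2b itself (761, 757 and 782 CPM in cortex, 807, 773 and 705 in cerebellum, adjusted p = 0.91, edgeR).

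Among 31 voltage-gated potassium channel subunits, 17 were 2-fold higher in cortex and 4 in cerebellum (median log2 fold change 2.04). The modifier subunit Kcnv1 was at 183, 195 and 173 CPM in cortex and 0.425, 0.203 and 0.286 in cerebellum (log2 fold change 9.25 ± 0.14, adjusted p = 4.1e-12, edgeR). Kcnf1 was at 166, 158 and 152 CPM in cortex and 1.70, 1.34 and 1.27 in cerebellum. Kcng1 followed with 73.1-fold. All 3 are silent subunits that form channels only together with others. Kcnc1, a Kv3 subunit that lets neurons fire fast, was 3.04-fold higher in cerebellum, and the modifier Kcng4 16.7-fold. Of 8 voltage-gated calcium channel alpha subunits, Cacna1g (T type) and Cacna1a (P/Q type), both prominent in Purkinje cells, were 2-fold higher in cerebellum and Cacna1h and, at a log2 fold change of 1.01 ± 0.07, Cacna1b in cortex. Cacna1a was at 205, 206 and 162 CPM in cortex and 548, 529 and 492 in cerebellum, while Cacna1h, another T-type subunit, was 9.29-fold higher in cortex. Of 8 sodium channel subunits, Scn3b, Scn3a and Scn4b were 2-fold higher in cortex; Scn4b, a striatal subunit too, was at 159, 228 and 354 CPM in the cortex libraries, highest in the third, and 108, 112 and 117 in cerebellum, and without that library its log2 fold change went from 1.13 to 0.78. Scn1a, a main pore subunit, did not pass the test and its libraries overlapped, as it was at 355, 350.0 and 305 CPM in cortex and 313, 303 and 334 in cerebellum (adjusted p = 0.28, edgeR).

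Receptors for monoamines and acetylcholine were predominantly higher in cortex. Of 36 tested genes, 26 were 2-fold higher in cortex and 6 in cerebellum, with a median log2 fold change of 2.72; 3 more were too low to test. Chrm1, the main muscarinic receptor of forebrain, was at 229, 211 and 199.5 CPM in cortex and 0.602, 0.842 and 0.525 in cerebellum. Htr1a, an inhibitory serotonin receptor, was 63.3-fold higher in cortex. The dopamine receptors Drd1 and Drd2 were higher in cortex too, but their cortex libraries differed widely. Drd1 was at 21.4, 31.9 and 72.6 CPM in cortex and 0.425, 0.116 and 0.263 in cerebellum. Drd2 was at 4.52, 9.83 and 22.9 CPM in cortex and 0.389, 0.232 and 0.788 in cerebellum. Without the third cortex library the log2 fold change of Drd1 went from 7.32 to 6.67 and that of Drd2 from 4.65 to 3.86, both still called. Nicotinic subunits of the cerebellar side were low: Chrnb4 was at 2.05, 2.44 and 2.01 CPM in cerebellum and 0.0779, 0.0747 and 0.350 in cortex. Htr1b, a presynaptic serotonin receptor, was 2.62-fold higher in cerebellum.

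Neuropeptide precursors were on the cortical side as well. Of 21 tested, 16 were 2-fold higher in cortex and none in cerebellum (median log2 fold change 3.56). Beside Vip, Sst and Cort (above), Cck (cholecystokinin) was at 188, 185 and 130.4 CPM in cortex and 19.7, 21.9 and 15.9 in cerebellum, Npy (neuropeptide Y) at 50.1, 59.8 and 52.4 CPM in cortex and 8.81, 8.05 and 7.28 in cerebellum. Crh (corticotropin-releasing hormone) was at 5.84, 5.90 and 4.32 CPM in cortex and 0.0708, 0 and 0.119 in cerebellum. Pdyn (prodynorphin) was at 24.6, 27.9 and 48.5 CPM in cortex and 0.142, 0.0871 and 0.0716 in cerebellum, again highest in the third cortex library, without which the log2 fold change went from 8.40 to 8.04. Penk (proenkephalin), which Golgi cells of the cerebellum and striatal neurons both make, did not pass the test (adjusted p = 0.11, edgeR): its libraries overlapped, with 49.5, 105 and 240.5 CPM in cortex around cerebellum values of 77.0, 79.8 and 71.6. The granin Chgb, a protein of secretory granules, was the 1 member higher in cerebellum, by less than 2-fold (log2 fold change -0.66 ± 0.06).

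Genes of the sonic hedgehog pathway, which drives granule precursor division in the young cerebellum and signals from Purkinje cells to Bergmann glia in the adult, were higher in cerebellum. Of 12 tested, 7 were 2-fold higher in cerebellum and none in cortex (median log2 fold change -1.16). The ligand Shh was low in both, at 3.54, 2.43 and 2.49 CPM in cortex and 4.71, 4.85 and 4.70 in cerebellum. The receptor Ptch1, itself a target of the pathway, was at 33.4, 36.8 and 38.4 CPM in cortex and 148, 162 and 147 in cerebellum; the co-receptors Boc and Cdon were 4.03-fold and 3.42-fold higher in cerebellum; and the target and effector Gli1 was at 1.71, 1.87 and 1.79 CPM in cortex and 13.6, 14.3 and 12.6 in cerebellum. Of 10 neurotrophin and growth factor genes, 3 were 2-fold higher in cortex and 2 in cerebellum. Ntf3 (neurotrophin 3, made by granule cells) was at 0.857, 0.523 and 1.01 CPM in cortex and 6.83, 5.75 and 5.20 in cerebellum. Bdnf was at 37.7, 39.6 and 33.6 CPM in cortex and 17.9, 19.6 and 18.5 in cerebellum.

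Guidance and adhesion families held members 2-fold higher in each region, in equal number only for the cadherins and otherwise with more in cortex. Of 20 tested Eph receptors and ephrins, 10 were 2-fold higher in cortex and 3 in cerebellum: Ephb6 was at 139.8, 130.4 and 101 CPM in cortex and 12.5, 10.4 and 9.67 in cerebellum, Epha4 was 8.51-fold higher in cortex and Epha8 8.39-fold higher in cerebellum. Of 18 class 3 semaphorins, plexins and neuropilins, 6 were 2-fold higher in cortex and 3 in cerebellum, with Plxnd1 (1.69 ± 0.09) and Plxnb2 (-1.93 ± 0.07) the largest log2 fold changes of the plexins in each direction. Of 20 tested cadherins, 7 were 2-fold higher in each region. Cdh9, which marks some layer 5 and hippocampal neurons, was at 19.4, 25.7 and 31.2 CPM in cortex and 0.779, 0.552 and 1.03 in cerebellum. Cdh15, an M-cadherin of granule cells, was at 0.740, 0.972 and 0.895 CPM in cortex and 63.5, 63.0 and 52.3 in cerebellum. Non-clustered protocadherins were 2-fold higher in cortex for 9 of 12 genes and in cerebellum for 1, with Pcdh8 10.7-fold higher. In the 3 protocadherin clusters, 7 of 60 genes were 2-fold higher in cortex and 4 in cerebellum, both below the shares of all tested genes. Pcdhgc5 had the largest difference of these, at 267, 247 and 231 CPM in cortex and 25.5, 25.4 and 19.9 in cerebellum. Clustered protocadherins share constant exons and are near-copies of each other, so single members are uncertain.

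Immediate early genes, which neurons switch on within minutes of activity, were mostly higher in cortex. Of 18, 12 were 2-fold higher in cortex and none in cerebellum (median log2 fold change 1.98). Egr3 was at 204, 210.3 and 157 CPM in cortex and 0.496, 0.755 and 0.668 in cerebellum, Egr1 at 259, 276 and 245 CPM in cortex and 34.9, 31.2 and 37.7 in cerebellum. Fosb was at 13.2, 12.6 and 9.30 CPM in cortex and 0.460, 0.290 and 0.501 in cerebellum. Arc, whose protein acts at activated synapses, was at 74.0, 76.2 and 142 CPM in cortex, highest in the third library, and 24.1, 23.1 and 20.9 in cerebellum, and without the third cortex library its log2 fold change went from 2.10 to 1.73. Fos itself did not pass the test (adjusted p = 0.092, edgeR), and its libraries overlapped: the third cerebellum library was at the level of cortex (13.2, 12.2 and 18.9 CPM in cortex, 3.93, 5.00 and 15.4 in cerebellum). Without that library Fos was higher in cortex by a log2 fold change of 1.72 (adjusted p = 8.5e-05, edgeR). Jun and Ier2 were higher in cerebellum by less than 2-fold, Jun at 44.2, 40.2 and 40.7 CPM in cortex and 82.9, 75.4 and 73.5 in cerebellum.

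Among genes common to all neurons, 4 of 16 were 2-fold higher in cortex and none in cerebellum, against 14.0% and 10.7% of all tested genes. Of 16 reference genes none was 2-fold higher in either direction, with 9 higher in cortex and 4 in cerebellum at an adjusted p below 0.05 (edgeR and DESeq2 alike in number). Snap25, a SNARE protein of synaptic vesicle release, was at 3650.3, 3964 and 3508 CPM in cortex and 3174, 3018 and 3008 in cerebellum, 1.21-fold apart. Stx1a, a syntaxin of the same complex, was at 268, 243 and 187 CPM in cortex and 1.91, 1.97 and 2.05 in cerebellum (log2 fold change 6.87 ± 0.16, adjusted p = 4.7e-11, edgeR). Among reference genes, Gapdh was at 398, 331 and 307 CPM in cortex and 348, 329.7 and 265 in cerebellum, with overlap (adjusted p = 0.31, edgeR), while Ywhaz, a 14-3-3 protein, was 1.95-fold higher in cortex. Cytosolic ribosomal protein genes were higher in cortex for 59 of 80 and in cerebellum for 3 at an adjusted p below 0.05 (33.3% and 33.9% of all tested genes), with a median log2 fold change of 0.34 and 1 gene, Rps2, at 2-fold. With scaling to library size alone, 47 were higher in cortex and 5 in cerebellum. Many of these genes have processed pseudogenes that share their reads, so single members are uncertain.

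RNA-binding proteins included the gene that the series was built on. Fmr1 was at 121, 131 and 122 CPM in cortex and 99.6, 104 and 119 in cerebellum, a log2 fold change of 0.22 ± 0.08 (adjusted p = 0.024, edgeR), small beside most genes named here and no longer called with scaling to library size alone (log2 fold change 0.13, adjusted p = 0.14) or without the second cortex, first cerebellum or second cerebellum library (adjusted p = 0.1, 0.11 and 0.091). Its paralogues Fxr1 and Fxr2 had log2 fold changes of 0.01 ± 0.07 and -0.32 ± 0.06, and none of the 3 passed the 2-fold rule. Among 29 tissue-specific splicing regulators, 6 were 2-fold higher in cortex and none in cerebellum: Khdrbs3 (a STAR-family protein that regulates neurexin splicing) was at 184, 177 and 159 CPM in cortex and 14.3, 14.5 and 14.2 in cerebellum. Celf5 was at 206, 214 and 196 CPM in cortex and 30.0, 31.3 and 27.9 in cerebellum.

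Metabolic genes were counted in the same way. Of 20 cholesterol synthesis genes, 13 were higher in cortex and 2 in cerebellum at an adjusted p below 0.05, 3 of them 2-fold. Ebp, a sterol isomerase, was higher in cerebellum, at 11.6, 12.5 and 10.5 CPM in cortex and 21.4, 22.2 and 22.7 in cerebellum. Of 17 glycolysis genes, 9 were higher in cortex and 5 in cerebellum at an adjusted p below 0.05, with a median log2 fold change of 0.16. At 2-fold there were 0 in cortex and 2 in cerebellum. Aldoc (aldolase C, the zebrin II antigen of Purkinje cell stripes, also an astrocyte enzyme) was at 643, 681 and 624 CPM in cortex and 1819, 1769 and 1578 in cerebellum, and Hk2 was 4.27-fold higher in cerebellum. Of 77 tested oxidative phosphorylation genes, 1 was 2-fold higher in cortex and 2 in cerebellum. Dao, the D-amino acid oxidase that degrades D-serine and is known from cerebellar astrocytes, was among the 10 largest differences: it was at 51.7, 57.5 and 51.7 CPM in cerebellum without a count in cortex, at least 1397-fold. The other genes of that set not named above were Cnpy1 (at least 574-fold) and Pkp3, a desmosomal plakophilin (at least 327-fold), both without counts in cortex. On the cortical side Gm11549 had 4168 counts in cortex and 4 in cerebellum.

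Glial and vascular genes differed in their own ways. All 15 microglia genes were 2-fold higher in cortex, with log2 fold changes from 1.40 to 2.37, and their summed level was 502 to 569 CPM per cortex library and 160 to 162 per cerebellum library. P2ry12, a purinergic receptor of resting microglia, was at 44.3, 54.0 and 61.8 CPM in cortex and 12, 10.4 and 11.8 in cerebellum. Csf1r, the receptor that microglia need to survive, was at 99.1, 101 and 110.1 CPM in cortex and 34.0, 35.8 and 35.4 in cerebellum. Of 16 astrocyte genes, 5 were 2-fold higher in cerebellum and 2 in cortex. S100b, a calcium-binding protein, was at 112, 125 and 126 CPM in cortex and 492, 465 and 479.7 in cerebellum, and the water channel Aqp4 at 155, 169.8 and 192 CPM in cortex and 663, 577 and 663 in cerebellum, whereas the libraries overlapped for Fgfr3 (91.0, 85.4 and 72.7 CPM in cortex, 80.2, 81.5 and 73.5 in cerebellum, adjusted p = 0.41, edgeR). Of 18 oligodendrocyte genes, 1 was 2-fold higher in cortex and none in cerebellum; the myelin gene Mbp was at 2290.0, 2824 and 2718 CPM in cortex and 2523, 2251 and 2633 in cerebellum, with overlap (adjusted p = 0.42, edgeR), and 11 of the 18 did not pass the test at any size. Of 8 oligodendrocyte precursor genes, 2 (Gpr17 and Pdgfra) were 2-fold higher in cortex. None of 16 endothelial and mural genes passed the 2-fold rule in either direction, and 2 were higher in cortex at an adjusted p below 0.05 in edgeR and 2 in DESeq2; the libraries of Flt1, a VEGF receptor, overlapped at 67.2, 85.0 and 75.5 CPM in cortex and 70.9, 71.8 and 69.6 in cerebellum (adjusted p = 0.3, edgeR). None of 4 red blood cell genes passed the 2-fold rule, and all 4 were higher in cerebellum at an adjusted p below 0.05 in edgeR, with a median log2 fold change of -0.70.

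**Figure D5:**
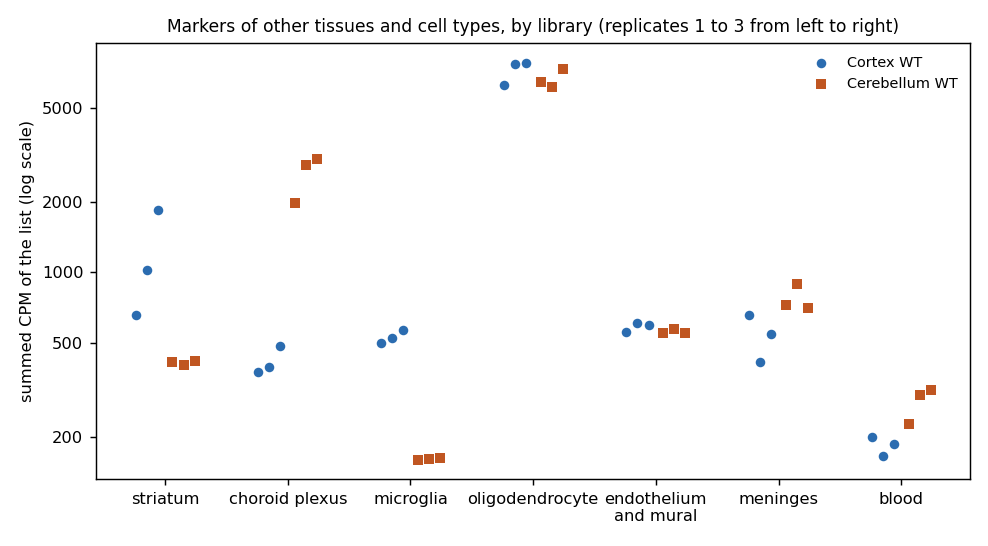
Summed CPM (vertical, log scale) of 7 marker lists in each library (blue circles cortex, orange squares cerebellum, replicates 1 to 3 from left to right). Striatal markers range from 657 to 1850 CPM over the cortex libraries, choroid plexus markers are 1982 to 3041 CPM in cerebellum against 376 to 487 in cortex, and oligodendrocyte and endothelial markers are at similar levels in both regions.

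Markers of tissues that border the dissected regions varied with region or with library. All 10 choroid plexus genes were 2-fold higher in cerebellum, summing to 1982, 2863 and 3041 CPM there and to 376, 397 and 487 CPM in cortex. Ttr (transthyretin), the most abundant transcript of that epithelium, was at 25.7, 9.60 and 60.5 CPM in cortex and 828, 1234 and 1117 in cerebellum; none of the 10 was without counts in either region. Kl, Otx2 and Enpp2 belong to the same list, and the part of choroid plexus in their difference was not tested. Of 10 meningeal genes, 3 were 2-fold higher in cerebellum. That count went to 0 without the second cortex library and to 5 without the first. Of 16 striatal genes, 12 were 2-fold higher in cortex and none in cerebellum, and the third cortex library was the highest cortex library for 15 of them: the sums were 657, 1025 and 1850 CPM in cortex and 403 to 422 in cerebellum. Adora2a, the adenosine receptor of indirect-pathway neurons, was at 9.31, 19.1 and 44.0 CPM in cortex and 1.63, 1.86 and 1.34 in cerebellum. Without the third cortex library the log2 fold change of Adora2a went from 3.91 to 3.15, that of Rgs9 from 3.18 to 2.53 and that of Rarb, a retinoic acid receptor, from 1.28 to 0.70, below 2-fold (34.1% of the exon bases of Rarb overlap Top2b on the opposite strand). Pde10a, the striatal phosphodiesterase, passed the test with all libraries (adjusted p = 0.022, edgeR) and not without the third cortex library (adjusted p = 0.061, edgeR). It was also not called without the first or the second cerebellum library (adjusted p = 0.051 and 0.076, edgeR) or with DESeq2 (adjusted p = 0.085). The same library was also the highest of the cortex libraries for all 10 choroid plexus genes. Whether striatal tissue contributed to it was not tested. Of 10 tested hippocampal field genes, 5 were 2-fold higher in cortex and 4 in cerebellum, led by Cpne7, a copine (17.6, 15.7 and 18.0 CPM in cortex, 0.142, 0.145 and 0.143 in cerebellum), and Tdo2, tryptophan dioxygenase (0.156, 0.448 and 0.506 CPM in cortex, 4.04, 4.68 and 5.08 in cerebellum). Of 9 tested genes of brainstem and deep nuclei, 4 were 2-fold higher in cortex and 3 in cerebellum. Among them Chat, the acetylcholine-synthesizing enzyme, was at 0.740, 1.35 and 5.56 CPM in the cortex libraries, highest in the third, and 0, 0.0581 and 0.0239 in cerebellum.

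The wild-type hippocampus of the same series, another forebrain region, gives these levels a further point. In its 3 libraries Tbr1 averaged 45.4 ± 5.16 CPM (SD) and Camk2a 3865 ± 192, both above the cerebellum values. Camk2a was also above its cortex values in hippocampus, as were Ddn (mean 2085 CPM), Crym (163 CPM) and Fezf2 (35.4 CPM). These genes are thus not particular to cortex among the forebrain regions of the series. Cbln3 averaged 0.445 ± 0.156 CPM there and Car8 6.54 ± 0.947, both below the cerebellum values. Ttr averaged 2299 ± 2032 CPM, above the mean of both other regions. Of the 2088 genes 2-fold higher in cortex, 1695 (81.2%) had a hippocampus mean nearer to cortex than to cerebellum (log2 of CPM + 0.1). For 691 (33.1%) it was at or above the cortex mean. Of the 1599 genes 2-fold higher in cerebellum, 355 (22.2%) had a hippocampus mean nearer to cerebellum, and 153 (9.6%) one at or above the cerebellum mean.

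The genes called also tended to span more of the genome. Of the 14913 tested genes 14255 (95.6%) were found by name in the annotation. Genes 2-fold higher in cortex had a median genomic span of 31552 bp, those 2-fold higher in cerebellum 27344 bp and all tested genes 25242 bp. Spans of 100000 bp or more were found for 25.4% of the first, 19.9% of the second and 15.7% of all. Protein-coding genes made up 94.2%, 93.9% and 96.4% of them in the annotation used for names and coordinates. These values describe the sets and were not tested.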

How the data were processed

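RNA-seq of wild-type mouse cortex and cerebellum was analysed from 3 libraries each, with groups taken from the titles in the labels. The authors deposited whole-number counts per gene symbol and, beside them, TPM (transcripts-per-million, scaled for gene length and library). The submitters' processing notes name CASAVA, FastQC 0.11.8, Trimmomatic 0.39, Bowtie2 2.3.5, STAR 2.6.1, RSEM 1.3.1, DESeq2 1.16.1 and the builds GRCm38 and mm10, without roles. Which tool made the counts, whether they were rounded estimates and whether they used the strand is not given in the sources used here. The deposited counts were tested with edgeR 4.0.16 (R 4.3.3): TMM scaling, filterByExpr, quasi-likelihood test, Benjamini-Hochberg adjustment over 14913 of 15777 genes, threshold 0.05, and a further threshold of 2-fold. An adjusted p in the text is from that test unless another tool is named. The biological coefficient of variation was 8.66%, with 4 residual and 6.60 prior degrees of freedom. Log2 fold changes are cortex over cerebellum, with standard errors. CPM are TMM-scaled. The libraries held 26264368 to 40722762 counts, so counting error is small beside the differences of genes at several CPM, and intervals from counts cover counting error only. For genes with no count in a region, bounds used a floor of 3 counts over its 3 libraries. TPM served for shares within families, where levels of different genes are set side by side. The scripts were tested on simulated data.

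Genes were named by rule: fixed region markers, the 10 largest differences in each direction at 10 CPM or more without overlap, and in each list the 3 largest called at 2-fold in each direction at 1 CPM or more with the smallest difference, or any member of lists of up to 24; some genes the rule would name are not reported here. Members and lists were chosen with earlier results of these data known. Overlapping exons were sought in GENCODE M21: besides the genes marked in the text, 10% or more of the exon bases of Csf1r (15.1%), Shh (15.7%), Htr1b (18.0%) and Dlx1as (20.6%) lie opposite another gene, and 23.7% of those of Pcp4 on the same strand as Igsf5, which leaves their counts less certain. The alternatives were DESeq2 1.42.0, its size factors, library size alone, no filter, a fit with the wild-type hippocampus (9 samples), a replicate block, a test against 2-fold and leaving out each library. Splicing tables, knockout samples and other tissues were not used here.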

Additional observations from a re-analysis of the deposited data

How the results depend on the processing

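The count of genes called, 10019, lay between 9255 and 10510 over the alternatives, and the count called at 2-fold, 3687, between 2721 and 4001. Leaving out 1 library gave 9255 to 9976 and 3722 to 3819, DESeq2 gave 9676 and 3637, and the test against 2-fold gave 2721 (1596 higher in cortex, 1125 in cerebellum). With scaling to library size alone 42.6% of the called genes were higher in cortex, against 49.6%. Same-numbered libraries were not treated as pairs in the fit reported, and the labels do not say whether they share an animal. Their deviations correlated at 0.19, -0.04 and 0.26. Cortex libraries 1 and 3 correlated best with the cerebellum library of their own number, and cortex library 2 did not. With 3 libraries per region, these correlations cannot decide whether libraries were paired. A replicate block gave 10510 and 3698 calls, 3671 of the latter shared with the fit without it. Of 194 genes named in the text, 180 kept their direction and side of the adjusted p threshold under every alternative compared. That comparison left out the test against 2-fold and did not use the 2-fold threshold. Without cortex library 3, for example, Foxp2 (log2 fold change 1.26 to 0.99), Scn4b (1.13 to 0.78) and Rarb (1.28 to 0.70) fell below 2-fold.

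The sign turned for 5 genes that did not pass the test in the fit reported. Under library size alone the log2 fold changes were -0.0795 for Camk2b, -0.0756 for Fxr1, -0.0048 for Fgfr3, -0.0071 for Mbp and -0.0069 for Ryr2. In the fit of 9 samples they were -0.0065 for Camk2b and -0.0032 for Fxr1. Leaving out 1 library gave -0.0479 (without the third cerebellum library) to 0.0487 for Camk2b, with -0.0059 without the third cortex library. For Fxr1 it gave -0.0325 (without the second cerebellum library) to 0.0483, with -0.0205 without the third cortex library. Calls were lost for Pde10a with DESeq2 (adjusted p = 0.085), for Fmr1 under library size alone (edgeR, 0.14), and without single libraries for Pde10a, Fmr1, Nrxn3 and Rims3 (edgeR, 0.051 to 0.12). Calls appeared in edgeR for Gabrb2 under library size alone (0.0075), for Fos and Gad2 with the block (0.0007 and 0.05), for Gad2 and Penk without the first cortex library (0.0067 and 0.00089), for Fos without the third cerebellum library (8.5e-05) and for Ddx49 in 4 alternatives (0.022 to 0.047).

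Of 106 counts of list members called at 2-fold in one direction, 91 stayed within 1.5 times; the other 15 were counts of 0 to 3 in the fit reported. The meninges count in cerebellum, 3, was 5 without the first cortex library and 0 without the second, and the Purkinje cell count in cortex, 2, was 1 without the third. The causes were not tested. With 3 libraries per region and no animal named, the spread between mice is not known. Genes under about 1 CPM are limited by depth.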
